A study of Homo sapiens with 18 samples.

Results

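Guanylate-binding proteins (GBPs) are large GTPases, and the 5 studied here were GBP1, GBP2, GBP3, GBP4 and GBP5, taken by gene symbol from a count table of 63677 Ensembl genes. All 5 passed the filter on low counts, as did 16678 genes in all. The counts came from 18 libraries of THP-1, an established human monocytic leukaemia line, in 6 groups of 3. KD cells received an siRNA against TRAFD1, SCR cells a scrambled control siRNA, both at 25 nM, and WT cells none. The labels differ on whether WT cells were untreated or received the transfection reagent alone. At 72 h after transfection each condition was given 10 ng/ml of lipopolysaccharide (LPS), a component of the outer membrane of Gram-negative bacteria, or medium (unstimulated) for 4 h. The study asked whether TRAFD1, a regulator of interferon and NF-kB signalling, acts on genes that its genetic analysis of other blood samples had tied to it. GBP1, GBP2, GBP4 and GBP5 were among those genes and GBP3 was not, so that list is no independent evidence of a direction here.

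GBPs are switched on by interferons. Interferon-gamma acts through its receptor and JAK kinases on genes with gamma-activated sites (GAS), and factors such as IRF1 drive genes with interferon-stimulated response elements (ISRE). The proteins then assemble on vacuoles that hold bacteria or on LPS set free in the cytosol, where GBP1 begins the coat and recruits the other members and caspase-4. GBP1, GBP2 and GBP5 carry a lipid (prenyl) anchor, which GBP3 and GBP4 lack.

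The 5 genes lie side by side on the minus strand of chromosome 1 (GRCh37, GENCODE v44lift37). In rising coordinate order they are GBP3 (ENSG00000117226, chr1:89472362-89488577), GBP1 (ENSG00000117228, chr1:89517565-89531043), GBP2 (ENSG00000162645, chr1:89571815-89616139), GBP4 (ENSG00000162654, chr1:89646827-89664625) and GBP5 (ENSG00000154451, chr1:89721872-89738543). GBP7 sits between GBP2 and GBP4, and the annotated bounds of GBP2 and GBP7 overlap on the same strand. GBP6 and the pseudogene GBP1P1 follow beyond GBP5 on the plus strand.

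The promoters of GBP1, GBP3 and GBP4 are shown because the RefSeq promoter table (GRCh38.p14) held these 3 members, and neither GBP2 nor GBP5. In WT they include the largest (GBP1) and the smallest (GBP4) LPS response described here. Each line runs from 150 bases before to 30 bases after the RefSeq transcript start, 5′ to 3′ along the gene, and capitals mark matches to the ISRE core (GAAA, any 2 bases, GAAA) or to GAS (TTC, any 3 bases, GAA) on either strand.
GBP1, chr1:89065179-89065358, minus strand: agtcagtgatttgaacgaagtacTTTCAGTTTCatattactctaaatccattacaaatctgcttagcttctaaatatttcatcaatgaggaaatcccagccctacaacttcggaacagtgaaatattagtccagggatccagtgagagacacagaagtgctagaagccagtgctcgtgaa
GBP3, chr1:89022837-89023016, minus strand: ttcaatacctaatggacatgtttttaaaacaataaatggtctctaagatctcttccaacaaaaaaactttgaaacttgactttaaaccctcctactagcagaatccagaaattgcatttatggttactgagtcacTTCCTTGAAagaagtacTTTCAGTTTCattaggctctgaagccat
GBP4, chr1:89198913-89199092, minus strand: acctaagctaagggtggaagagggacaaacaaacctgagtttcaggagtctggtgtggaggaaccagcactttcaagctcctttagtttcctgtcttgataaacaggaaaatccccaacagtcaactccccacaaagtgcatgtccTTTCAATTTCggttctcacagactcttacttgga

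In the whole 300-base entry, each of the 3 genes held 1 ISRE core, against 3.57% of all 35116 promoters in the table. It spanned positions -127 to -118 in GBP1, 3 to 12 in GBP3 and -4 to 6 in GBP4, where 1 is the first transcribed base. The GBP1 and GBP3 elements had the same letters and lay within a 19-base run that both promoters share (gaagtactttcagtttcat), which starts at -134 in GBP1 and at -5 in GBP3. The GBP4 element read TTTCAATTTC, against TTTCAGTTTC in GBP1 and GBP3. A match to the GAS letters (TTC, any 3 bases, GAA) stood at -15 to -7 in GBP3 and in neither of the others, against 7.66% of promoters. The 1 pattern searched as a core for NF-kB (GGGAA, any 3 bases, CC) was in none of the 3 and in 6.90% of promoters. GBP6 and GBP7, relatives held in the same table, had no match to the ISRE core, GAS or the NF-kB core. No match overlapped another, and a match of letters is a description of the window, not a bound site. Only these letter patterns were searched. The lack of a match therefore does not show that a promoter lacks a GAS or an NF-kB site.

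Libraries held 8206023 to 22344279 counts, and individual members between 16 and 586 counts per library. The libraries were made with QuantSeq, which gives 1 fragment near the 3′ end per transcript, and levels are given as CPM, counts per 1000000 counts of the library with TMM-scaled totals. The 3 unstimulated KD libraries resembled each other least: their mean Pearson correlation of log2 CPM with their own group, across genes, was 0.957 to 0.963, against 0.974 to 0.980 in the other groups. The monocytic identity of the line was checked first: all 8 monocyte markers were above the floor of 3 counts in every library, with a summed level of 457 to 644 CPM. Summed markers of T cells reached at most 1.02 CPM, of B cells 6.27, of epithelium 0.603 and of fibroblasts 3.81. Knockdown lowered TRAFD1 itself without LPS, where KD against SCR gave log2 -1.45 ± 0.23 (SE) at an edgeR adjusted p of 0.0277. With LPS its difference was -0.65 ± 0.22, which did not pass (edgeR adjusted p = 0.262). Against WT, TRAFD1 in KD was lower without LPS (-1.23 ± 0.23, edgeR adjusted p = 0.00156). With LPS that difference was -0.23 ± 0.23 (0.563), and the libraries overlapped. On LPS TRAFD1 rose in KD by 0.73 ± 0.23 (edgeR adjusted p = 0.0456). Its values of -0.27 ± 0.22 in WT and -0.07 ± 0.22 in SCR did not pass (0.491 and 0.872). TNF, an early LPS target, rose on LPS by log2 3.16 ± 0.16 in WT, 1.73 ± 0.15 in SCR and 1.40 ± 0.15 in KD (edgeR adjusted p = 4.28e-12, 3.25e-08 and 9.67e-07).

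The first question was how the GBPs responded to LPS. All 5 members rose in WT and in SCR and 4 of the 5 rose in KD, GBP1 and GBP2 the most and GBP4 the least. Beside these counts, 7.01% of the genes tested rose in WT, 8.64% in SCR and 6.41% in KD (edgeR quasi-likelihood test, adjusted p under 0.05). Every LPS library lay above every unstimulated library of its condition for each member, which held for 15.0%, 17.5% and 12.8% of all genes. The median log2 fold change of the members was 1.68 in WT, 2.17 in SCR and 1.30 in KD, beside -0.03, -0.03 and -0.0029 over all genes tested. A bulk library cannot tell more RNA per cell from more cells of a responding kind.

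GBP1, which starts the GBP coat on bacteria, stood at 1.24, 1.45 and 1.87 CPM in the unstimulated WT libraries and at 18.2, 15.9 and 19.95 CPM with LPS. In SCR it was 3.11, 2.74 and 3.38 CPM without LPS and 19.3, 16.5 and 16.8 CPM with it. The KD libraries gave 1.74, 3.88 and 4.12 CPM without LPS and 10.6, 12.6 and 12.5 CPM with it. Unstimulated SCR thus lay wholly above unstimulated WT, KD replicate 1 without LPS lay within the WT range, and the stimulated KD libraries all lay below the stimulated WT and SCR libraries. The LPS response was 11.6-fold in WT, 5.65-fold in SCR and 3.70-fold in KD, or log2 3.54 ± 0.25, 2.50 ± 0.24 and 1.89 ± 0.24 (SE). Their edgeR adjusted p values were 1.13e-09, 1.42e-07 and 9.9e-06. In order of mean level the groups ran from unstimulated WT (1.52 ± 0.32 CPM, SD, n = 3) over unstimulated SCR (3.08 ± 0.32) and KD (3.25 ± 1.3) to stimulated KD (11.9 ± 1.1), SCR (17.5 ± 1.5) and WT (17.99 ± 2.1). Unstimulated SCR and KD overlapped, as did stimulated SCR and WT.

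GBP2, a prenylated member that joins the GBP1 coat, measured 2.03, 1.72 and 2.31 CPM in unstimulated WT and 16.8, 16.5 and 13.6 CPM in stimulated WT. Its SCR libraries held 1.69, 1.82 and 3.31 CPM before and 15.0, 13.7 and 19.0 CPM after LPS. In KD the levels were 2.35, 3.80 and 2.25 CPM unstimulated and 10.8, 12.5 and 17.3 CPM stimulated. Within each stimulation state the 3 conditions overlapped. LPS raised GBP2 by 7.59-fold in WT, 7.10-fold in SCR and 4.86-fold in KD (log2 2.92 ± 0.27, 2.83 ± 0.27 and 2.28 ± 0.26, edgeR adjusted p = 6.32e-08, 1.46e-07 and 3.16e-06). The means rose from WT (2.02 CPM) over SCR (2.27) and KD (2.80) to stimulated KD (13.5), WT (15.6) and SCR (15.9), and the only neighbours set apart were unstimulated KD and stimulated KD.

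GBP5, a prenylated member known for promoting NLRP3 inflammasome assembly and for inhibiting the protease furin, was at 6.43, 6.08 and 7.11 CPM in unstimulated WT and at 24.5, 21.7 and 17.0 CPM after LPS. The SCR libraries gave 4.53, 5.38 and 7.00 CPM and then 25.3, 27.3 and 22.6 CPM. Those of KD gave 13.2, 7.92 and 6.83 CPM and then 22.7, 21.4 and 25.3 CPM. A single unstimulated KD library, replicate 1, was far above the other 8 unstimulated libraries, and the stimulated conditions overlapped. The response was 3.20-fold in WT, 4.49-fold in SCR and 2.46-fold in KD (log2 1.68 ± 0.21, 2.17 ± 0.22 and 1.30 ± 0.21, edgeR adjusted p = 6.77e-06, 3.46e-07 and 0.000204). GBP5 levels ran from unstimulated SCR (5.64 CPM) over WT (6.54) and KD (9.32) to stimulated WT (21.1), KD (23.1) and SCR (25.1), with a gap only between unstimulated KD and stimulated WT.

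GBP3, which lacks the prenyl anchor and is drawn to bacteria by GBP1, held 5.64, 7.25 and 6.84 CPM in unstimulated WT and 17.0, 13.3 and 13.9 CPM in stimulated WT. SCR libraries showed 7.01, 11.9 and 4.77 CPM and, with LPS, 17.8, 13.5 and 12.5 CPM. KD libraries showed 6.37, 6.19 and 7.76 CPM and, with LPS, 12.2, 13.8 and 11.4 CPM. The unstimulated SCR libraries spread over the whole range of the unstimulated groups, and replicate 2 lay above the lowest stimulated KD library. The rise was 2.24-fold in WT, 1.86-fold in SCR and 1.85-fold in KD (log2 1.16 ± 0.24, 0.89 ± 0.24 and 0.88 ± 0.24, edgeR adjusted p = 0.00171, 0.0120 and 0.0196). The call on GBP3 was lost in SCR without unstimulated replicate 1 (edgeR adjusted p = 0.0640), unstimulated replicate 3 (0.0655) or LPS replicate 4 (0.0749), and in KD without unstimulated replicate 2 (0.0608) or LPS replicate 5 (0.0890). From low to high, GBP3 means were 6.58 CPM in WT, 6.77 in KD and 7.88 in SCR without LPS, then 12.5 in KD, 14.6 in SCR and 14.7 in WT. Each group in that order overlapped with the next.

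GBP4, also without a prenyl anchor and reported to support the caspase-4 platform, had 21.3, 19.8 and 23.0 CPM in unstimulated WT and 28.6, 37.4 and 37.7 CPM with LPS. Its SCR values were 19.97, 26.5 and 27.4 CPM and then 43.2, 31.3 and 31.9 CPM. Its KD values were 22.1, 19.7 and 28.8 CPM and then 32.2, 35.1 and 32.4 CPM. Stimulated libraries were above unstimulated ones within each condition, but the lowest stimulated WT library lay under the highest unstimulated KD library. GBP4 rose 1.62-fold in WT and 1.44-fold in SCR (log2 0.69 ± 0.16 and 0.53 ± 0.16, edgeR adjusted p = 0.00575 and 0.0300). In KD its value of 1.41-fold (log2 0.50 ± 0.16) missed the threshold at an edgeR adjusted p of 0.0519. The SCR call was lost without unstimulated replicate 1 (edgeR adjusted p = 0.168) or LPS replicate 4 (0.191), and GBP4 in KD passed without unstimulated replicate 3 (0.0218). It also passed in KD by DESeq2 on all libraries (adjusted p = 0.0407) and by edgeR with no filter (0.0287) or with the replicate number as a block (0.0284). Mean GBP4 levels followed the order WT (21.4 CPM), KD (23.5) and SCR (24.6) without LPS and KD (33.2), WT (34.6) and SCR (35.5) with it, and within each state all 3 overlapped.

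**Figure D1:**
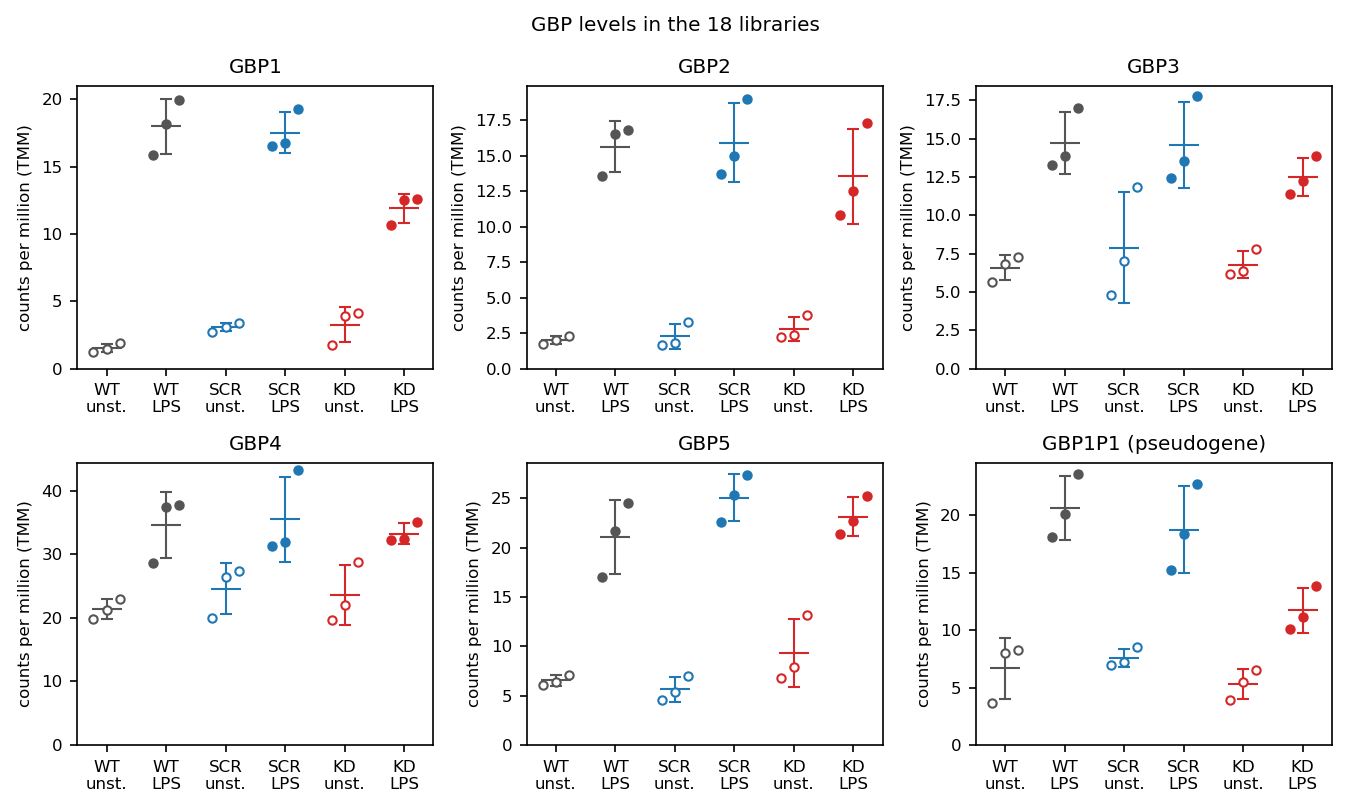
Level in CPM (y axis, TMM-scaled) of the 5 GBP members and the pseudogene GBP1P1 in each of the 18 libraries (points), with the mean and SD of each group of 3 (bar and whiskers), open points unstimulated and filled points with LPS. Each member is higher with LPS than without in every condition, and stimulated KD libraries of GBP1 (10.6 to 12.6 CPM) lie below all stimulated WT and SCR libraries.

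GBP1 was the one member whose LPS response passed a test between conditions. It was smaller in KD than in WT by log2 -1.65 ± 0.34 (SE, edgeR interaction, adjusted p = 0.0369), 1 of 5 members, where 0.360% of genes tested were called. The difference was -1.04 ± 0.34 in SCR against WT and -0.61 ± 0.33 in KD against SCR, and neither passed (edgeR adjusted p = 0.356 and 0.684, with 0.234% and 0% of genes tested called). These comparisons share libraries, and SCR cells received no siRNA against TRAFD1. The call of KD against WT held only without unstimulated WT replicate 2 or 3 or unstimulated KD replicate 1. Without any other of the 12 libraries its edgeR adjusted p lay between 0.0683 and 0.130, with values of -1.73 to -1.43. The KD-against-SCR value of GBP1 lay between -0.92, without unstimulated KD replicate 1, and -0.39, without unstimulated KD replicate 3. The labels were checked with 5 LPS target genes (TNF, IL1B, CXCL8, CXCL10 and NFKBIA). By edgeR, 3 of them also had a smaller response in SCR than in WT, and 1 in KD than in WT. These counts do not rank the conditions: the median difference from WT was -0.63 in SCR and larger in size in KD. Of the 4 genes other than IL1B, DESeq2 on all libraries called 3 in each comparison, beside 85 and 275 of all genes.

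No other member passed. For GBP5 the response in KD against that in SCR was -0.87 ± 0.30 (edgeR adjusted p = 0.588), for GBP2 -0.55 ± 0.37 (0.747), and for GBP3 and GBP4 -0.01 ± 0.34 and -0.03 ± 0.23 (0.996 and 0.986). The GBP5 value moved to -0.52 without unstimulated KD replicate 1 and to -1.07 without unstimulated SCR replicate 3. That of GBP2 moved to -0.28 without unstimulated KD replicate 2 and to -0.93 without unstimulated SCR replicate 3. By edgeR 0 of the 5 members passed between KD and SCR, 1 at an unadjusted p under 0.05, and 0 by DESeq2. Across all genes 0 passed in that interaction by edgeR (0% of genes tested), 1274 at an unadjusted p under 0.05, and 3 by DESeq2.

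**Figure D2:**
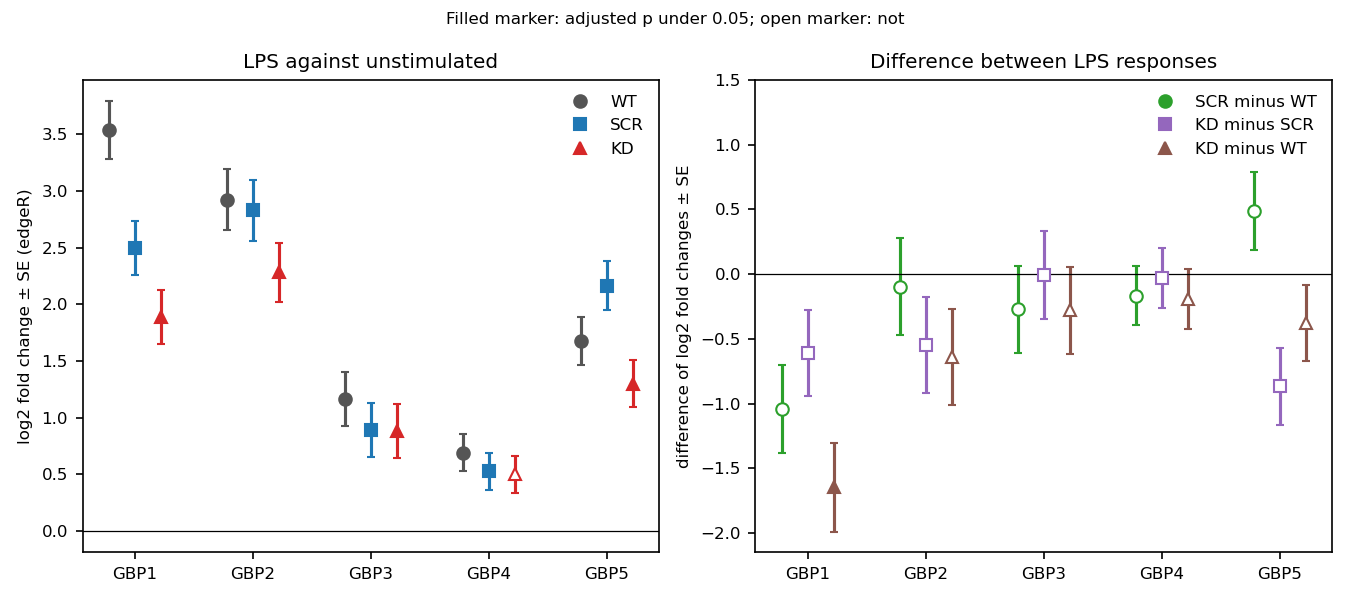
Left, log2 fold change of LPS against unstimulated for each GBP in WT (circles), SCR (squares) and KD (triangles), and right, differences between these responses, with edgeR standard errors as whiskers and filled markers for adjusted p under 0.05. GBP1 falls from 3.54 in WT over 2.50 in SCR to 1.89 in KD, and its KD-minus-WT difference of -1.65 is the only filled marker on the right.

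The next question was whether knockdown of TRAFD1 moved the GBPs within a stimulation state, for which KD against SCR is the matched comparison. By edgeR none of the 5 members passed, either without LPS (0.0660% of genes tested were called) or with LPS (0%). At an unadjusted p under 0.05 there was 1 member in each state, GBP5 without and GBP1 with LPS. DESeq2 on all libraries called 1 member without LPS, GBP5, and gave none of the members an adjusted p with LPS. For all genes without LPS the counts were 11 by edgeR, 2107 at an unadjusted p under 0.05 and 242 by DESeq2. With LPS they were 0 by edgeR, 1963 at an unadjusted p under 0.05 and 142 by DESeq2.

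GBP1 with LPS was the one member whose KD and SCR libraries did not overlap. The KD libraries were lower, by log2 -0.55 ± 0.21 (SE, edgeR adjusted p = 0.316), and 10.7% of all genes were likewise lower without overlap. Leaving out any of the 6 libraries kept its value between -0.60 and -0.48. Without LPS the difference in GBP1 was 0.06 ± 0.25 (edgeR adjusted p = 0.951). GBP5 was the member with the largest unstimulated difference, 0.75 ± 0.22 higher in KD (edgeR adjusted p = 0.151), and its groups overlapped. Leaving out 1 library at a time moved that value from 0.40, without KD replicate 1, to 0.94. For GBP5 with LPS the difference was -0.12 ± 0.20 (edgeR adjusted p = 0.852).

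GBP2, GBP3 and GBP4 differed between KD and SCR by little more than their standard error at most in both states. Without LPS they gave 0.31 ± 0.29, -0.20 ± 0.24 and -0.06 ± 0.16, and with LPS -0.23 ± 0.23, -0.21 ± 0.23 and -0.09 ± 0.16. The edgeR adjusted p values of these 6 differences were 0.711 to 0.924. Single libraries moved the values for GBP2 from 0.04, without KD replicate 2, to 0.69, without SCR replicate 3, in the unstimulated state, and from -0.45, without KD replicate 6, to -0.08, without SCR replicate 6, with LPS. With LPS all 5 members had a value below 0, with a median of -0.21 beside 0.02 over all genes, but no value passed and GBP4 changed sign when 1 library was left out (-0.17 to 0.07). These results miss the threshold and do not show that the levels were equal.

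Against WT, GBP1 stood out without LPS. It was higher in SCR than in WT by log2 1.00 ± 0.27 (edgeR adjusted p = 0.0437) and higher in KD than in WT by 1.06 ± 0.27 (0.0141). In each comparison this was 1 of 5 members, where 3.23% and 11.7% of all genes were called. SCR lay wholly above WT, as did 11.1% of all genes, while KD replicate 1 (1.74 CPM) fell within the WT range. Neither call was firm. The edgeR adjusted p of SCR against WT lay between 0.0611 and 0.164 without any 1 of its 6 libraries, and that of KD against WT rose to 0.0690 without WT replicate 1. It was 0.0542 when KD replicate 2 was removed and 0.0781 when KD replicate 3 was. Other genes moved in the same unstimulated libraries. Of the 5 LPS target genes, TNF, CXCL10 and NFKBIA were higher in SCR than in WT and TNF, CXCL8 and CXCL10 higher in KD than in WT, 3 of 5 in each, with list medians of log2 1.25 and 1.03 beside 0.0057 and -0.0085 over all genes. The mean TNF level was 15.9 CPM in WT and 43.2 CPM with either siRNA. Of the 8 monocyte markers 1 was higher in SCR and 2 in KD, CD14 in both (mean 35.4 CPM in SCR and 26.6 CPM in KD, against 16.1 CPM in WT) and CD68 in KD. The part of these genes in the GBP1 differences was not tested.

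With LPS, GBP1 in KD lay under WT instead. The difference was log2 -0.59 ± 0.21 without overlap of the libraries, and 16.4% of all genes were lower in that way, but the edgeR adjusted p was 0.0782. By DESeq2 on all libraries GBP1 passed (-0.62, adjusted p = 0.0340), and it was the 1 member at an unadjusted p under 0.05 in edgeR. In total 0 of 5 members were called by edgeR in KD against WT with LPS (10.8% of genes tested) and 0 of 5 in SCR against WT with LPS (0.114%), where 0 were under an unadjusted p of 0.05 and 0 were called by DESeq2. The other 4 members had differences from WT of -0.24 to 0.51 over both states and both siRNAs, none called.

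**Figure D3:**
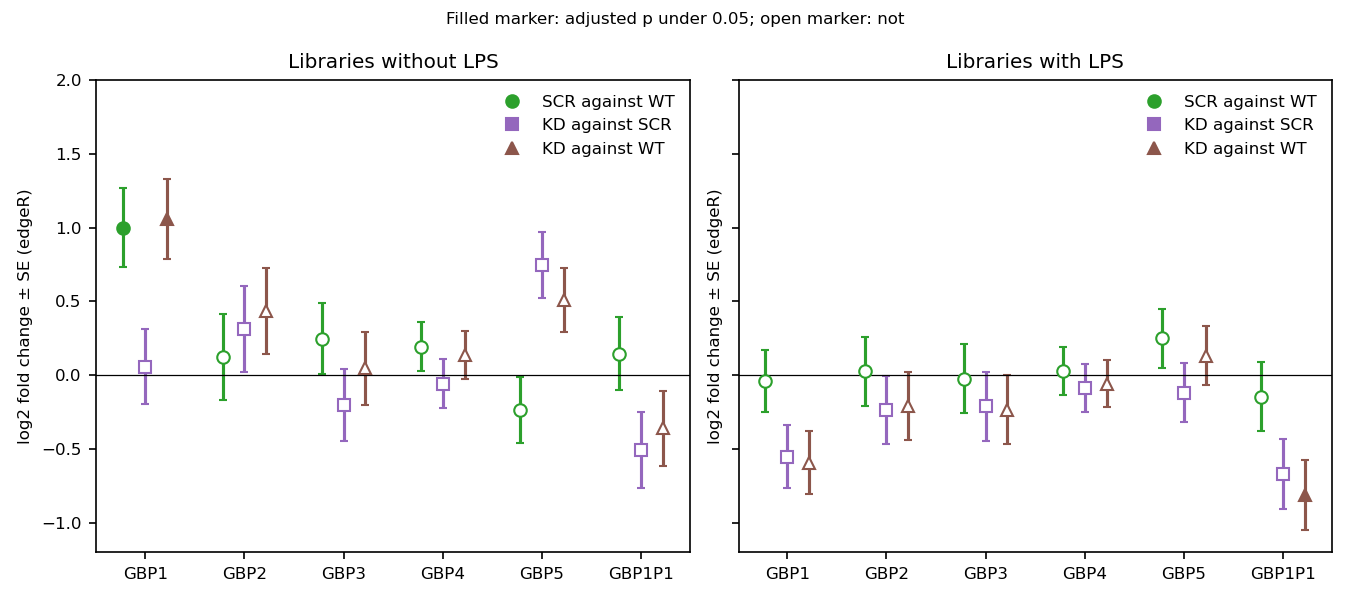
Log2 fold changes between conditions for the 5 members and GBP1P1, with edgeR standard errors, in unstimulated (left) and LPS-stimulated (right) libraries; filled markers have an adjusted p under 0.05. Among members the filled markers are GBP1 in SCR against WT (1.00) and in KD against WT (1.06) without LPS, and no marker of KD against SCR (squares) is filled.

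GBP1 may share reads with its pseudogene GBP1P1 (ENSG00000225492, chr1:89875878-89891802, plus strand), since the counting was over the last 500 bases of each gene. Of the 451 stretches of 50 bases in the last 500 bases of the longest GBP1 transcript, 0 occurred in a transcript of another gene. In GBP1P1 81 of 451 also occurred in GBP1, none of them within those last 500 bases of GBP1. The annotation used for this check is later than the one used for counting, and how reads with several matches were treated is not given in the sources used here. GBP2, GBP3 and GBP5 shared 0 of 451, while GBP4 shared 73 (16.2%) with genes outside the family.

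GBP1P1 also rose on LPS. It went from 8.30, 3.63 and 8.04 CPM to 18.1, 20.1 and 23.6 CPM in WT, from 6.97, 8.48 and 7.23 to 22.7, 15.2 and 18.3 CPM in SCR, and from 5.50, 6.52 and 3.88 to 10.1, 11.1 and 13.9 CPM in KD. The responses were log2 1.597 ± 0.24, 1.31 ± 0.24 and 1.14 ± 0.25 (edgeR adjusted p = 7.15e-05, 0.000792 and 0.00465). With LPS all KD libraries were below all SCR libraries (-0.67 ± 0.24, edgeR adjusted p = 0.276) and below all WT libraries (-0.81 ± 0.24, 0.0321). Of all genes, 10.7% and 16.4% were likewise lower without overlap. Without LPS GBP1P1 in KD was also below SCR, by -0.51 ± 0.26 (edgeR adjusted p = 0.425), and its value against WT was -0.36 ± 0.26 (0.402). Summing the counts of GBP1 and GBP1P1 lowered the LPS responses of GBP1 to 2.21 for WT, 1.77 for SCR and 1.47 for KD. For the sum, KD was below WT with LPS by -0.71 (edgeR adjusted p = 0.0191), whereas the difference from WT without LPS was 0.35 in SCR and 0.03 in KD (0.392 and 0.948) and the KD-against-WT interaction was -0.74 (0.222).

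The other genes of the cluster were barely detected. GBP7 had 0 to 29 counts per library and group means of 0.430 to 2.12 CPM, and none of its 12 contrasts passed by edgeR, with 1 at an unadjusted p under 0.05. GBP7 was higher with LPS in SCR without overlap, as were 17.5% of all genes. It went from 0.311, 0.365 and 0.615 CPM, or 4 to 8 counts, to 3.27, 1.04 and 2.05 CPM (log2 2.27 ± 0.82, edgeR adjusted p = 0.0596). In WT and KD its libraries overlapped, with responses of 1.19 ± 0.78 and 1.10 ± 0.81 (edgeR adjusted p = 0.358 and 0.418). GBP6 had 0 to 3 counts in every library, at or under the floor, and was not tested.

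Genes flanking the cluster were examined as well. Within 500000 bases on either side, 6 of 7 protein-coding genes were tested. By edgeR 2 of them rose and 1 fell in WT, 2 rose in SCR, and none passed in KD. Of all genes tested, 7.01%, 8.64% and 6.41% rose, and 2380, 2869 and 1912 of the 16678 were called in either direction. In KD 2 flanking genes were at an unadjusted p under 0.05, as were 4357 of all genes, and 0 passed by DESeq2. LRRC8B, a subunit of volume-regulated anion channels, rose by log2 0.83 ± 0.19 in WT and 1.03 ± 0.19 in SCR (edgeR adjusted p = 0.00448 and 0.000697). RBMXL1, next to GBP3, rose by 0.49 ± 0.11 in WT alone among the tests (edgeR adjusted p = 0.00479), PKN2 by 0.59 ± 0.18 in SCR (0.0265), and LRRC8C fell by 0.68 in WT (0.0200). The flanking genes' median (0.19 for WT, 0.18 for SCR, 0.30 for KD) was below that of the GBPs in each condition.

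**Figure D4:**
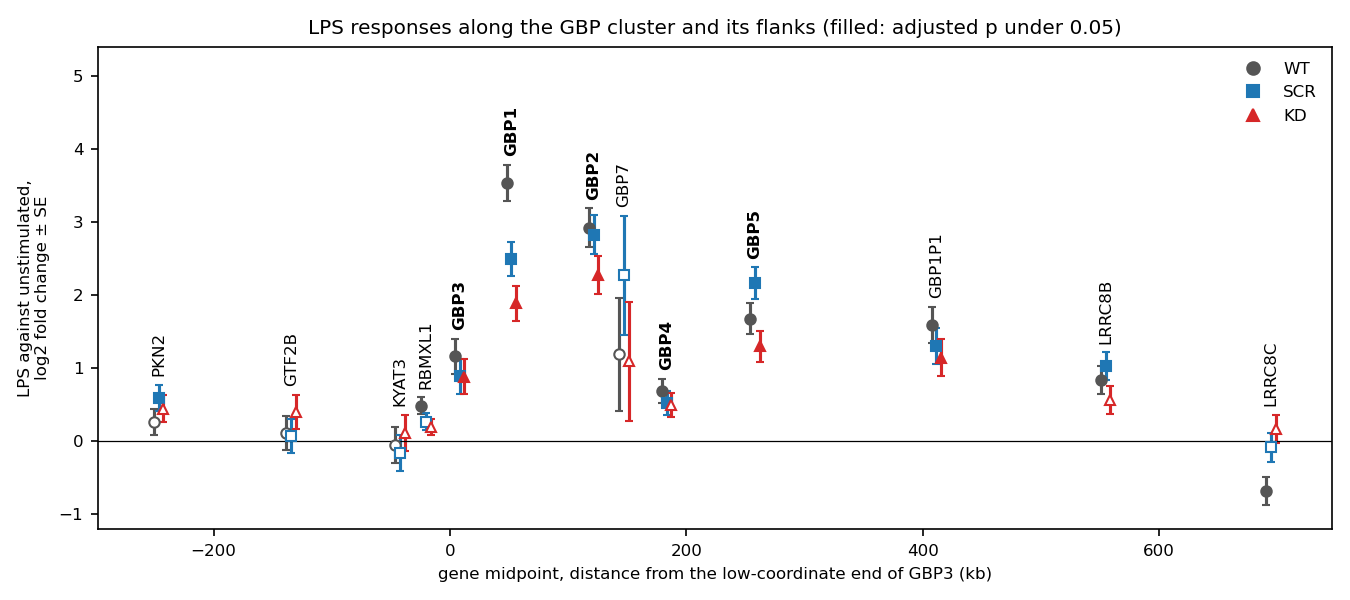
LPS response (y axis, log2 fold change ± SE) of each tested gene against the distance of its midpoint from the low-coordinate end of GBP3 (x axis, kb), in WT, SCR and KD drawn slightly side by side, with members in bold and filled markers for an adjusted p under 0.05. GBP1 and GBP2 reach 3.54 and 2.92 in WT, their neighbours GBP3 and GBP4 1.16 and 0.69, and the flanking genes stay between -0.68 and 1.03.

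Part of the interferon pathway upstream of the GBPs rose with LPS, the interferon-gamma receptor chain IFNGR2 and IRF1 in each condition. Of 16 listed ligands, receptors, kinases, transcription factors and feedback inhibitors 15 were tested, and on LPS 3 rose in WT, 6 in SCR and 4 in KD, with 0 falling in any of them, beside the 7.01%, 8.64% and 6.41% of genes tested that rose. IFNG, the ligand that induces GBPs most strongly, had 0 counts in all 18 libraries, which allows at most 0.133 to 0.378 CPM per library. IFNB1 had 3 to 69 counts and its responses of 0.34 ± 0.82, 1.61 ± 0.74 and 0.74 ± 0.71 in WT, SCR and KD did not pass (edgeR adjusted p = 0.840, 0.149 and 0.547).

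Among receptors and transducers, IFNGR2, the signalling chain of the interferon-gamma receptor, rose in each condition by log2 1.23 ± 0.08 in WT, 0.96 ± 0.08 in SCR and 1.08 ± 0.08 in KD (edgeR adjusted p = 3.13e-10, 2.5e-08 and 5.45e-09). IRF1, which binds ISREs, rose by 0.70 ± 0.10, 0.43 ± 0.10 and 0.41 ± 0.10 (edgeR adjusted p = 4.06e-05, 0.00554 and 0.0120). Its unstimulated and stimulated means were 87.9 and 143 CPM in WT, 91.1 and 123 in SCR and 73.2 and 97.2 in KD. The feedback inhibitor SOCS3 rose in SCR and KD by 2.48 ± 0.47 and 1.90 ± 0.44 (edgeR adjusted p = 0.000866 and 0.00711), beside 1.22 ± 0.45 in WT (0.0732).

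Between KD and SCR 0 of the 15 pathway genes passed by edgeR in either state, with 3 at an unadjusted p under 0.05 and 1 by DESeq2 in each (with LPS, DESeq2 gave 10 of them an adjusted p). For all genes tested the latter 2 counts were 2107 and 242 without LPS, and 1963 and 142 with it. IRF1 had KD-against-SCR values of -0.32 ± 0.10 without LPS and -0.34 ± 0.10 with it (edgeR adjusted p = 0.191 and 0.217). In KD against WT with LPS 6 of the 15 were called, beside 10.8% of genes tested: IRF1 fell by 0.56, IFNAR2 by 0.49, IFNGR2 by 0.34 and STAT2 by 0.30, and IFNGR1 and IRF8 were higher by 1.86 and 1.32 (edgeR adjusted p = 0.00293, 0.00704, 0.0112, 0.0459, 0.00792 and 0.0314). GBP1 had its lower stimulated level in the same libraries, and any part of these genes in it was not tested.

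Downstream of the GBPs, 11 of 12 listed effectors and regulators were tested. On LPS 4 rose and 2 fell in WT, 3 rose and 1 fell in SCR, and 2 rose and 1 fell in KD. Beside these counts, 7.01%, 8.64% and 6.41% of the genes tested rose. In either direction 2380, 2869 and 1912 of the 16678 genes tested were called in WT, SCR and KD. IL1B, the cytokine released by inflammasomes, rose by log2 4.01 ± 0.27, 4.24 ± 0.26 and 4.90 ± 0.29 in WT, SCR and KD (edgeR adjusted p = 3.53e-10, 2.65e-10 and 1.12e-10). PIM1, a kinase that holds GBP1 inactive, rose by 1.70 ± 0.26, 1.53 ± 0.26 and 2.07 ± 0.26 (8.94e-05, 0.000285 and 1.19e-05). FURIN, whose product is inhibited by GBP2 and GBP5, fell by 0.51, 0.58 and 0.36 (0.000566, 0.000197 and 0.0153). CASP4, the LPS sensor that GBPs recruit, rose in WT by 0.39 ± 0.10 (edgeR adjusted p = 0.0118), with 0.24 ± 0.10 in SCR and -0.05 ± 0.10 in KD not passing (0.121 and 0.787). NLRP3 fell by 0.85 in WT (0.000162), and CASP5 had at most 10 counts and was not tested. Between KD and SCR 0 of the 11 passed in either state by edgeR or DESeq2, with 3 at an unadjusted p under 0.05 without LPS and 1 with it, where DESeq2 gave 5 of them an adjusted p. Of all genes tested, 2107 and 1963 were under that unadjusted p without and with LPS.

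The enzymes that attach and process the prenyl anchor (FNTA, FNTB, PGGT1B, RCE1 and ICMT) gave 0 calls of 5 on LPS in each condition by edgeR and by DESeq2, and 1 at an unadjusted p under 0.05 in each. Of all genes tested, 4426, 5004 and 4357 were under that unadjusted p in WT, SCR and KD. Of the related dynamin-like and interferon-inducible GTPases, 6 of 8 were tested. RNF213, a ubiquitin ligase listed with them because it also coats bacteria, rose on LPS in each condition by 0.28 ± 0.08, 0.36 ± 0.08 and 0.30 ± 0.08 (edgeR adjusted p = 0.0184, 0.00294 and 0.0164). By edgeR MX2 passed in WT only (0.25 ± 0.07, 0.0301), and MX1 gave 0.14 ± 0.08, -0.00 ± 0.08 and -0.07 ± 0.08. In SCR edgeR called 1 of the 6 and DESeq2 on all libraries 2, beside 2869 and 3215 of all genes.

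**Figure D5:**
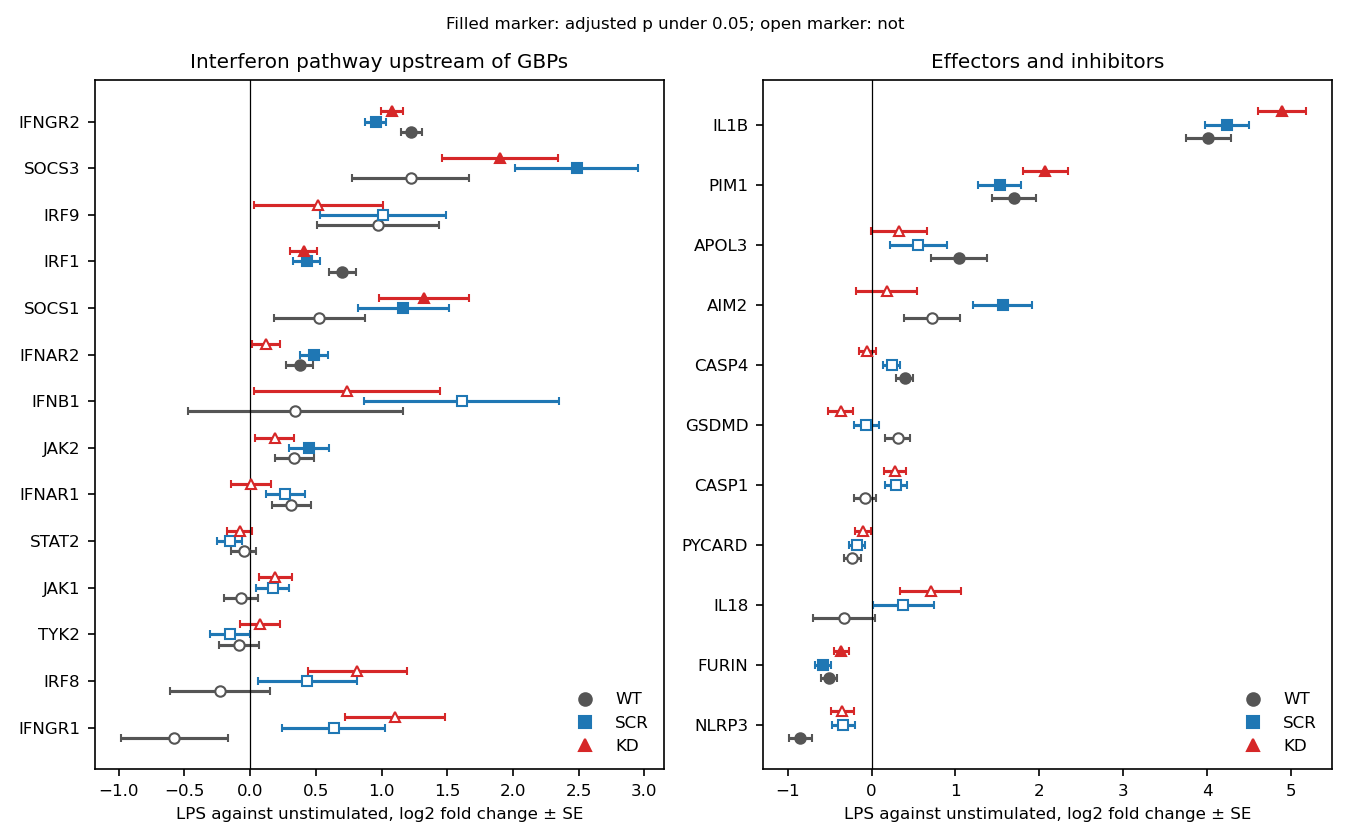
LPS response (x axis, log2 fold change ± SE from edgeR) of genes of the interferon pathway (left) and of GBP effectors and regulators (right), in WT (circles), SCR (squares) and KD (triangles), with filled markers for an adjusted p under 0.05. IFNGR2 and IRF1 are filled in all 3 conditions, and on the right IL1B, PIM1 and FURIN are filled in all 3.

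The members were last compared by their profiles, as the root mean square difference of centred log2 CPM over the 18 libraries, where a smaller value is a closer match. Profiles were centred but not scaled, so the size of the LPS response enters this measure as well as its shape. The libraries share depth and the LPS contrast, so this is a description. GBP3 and GBP4 were the closest pair (0.359) and GBP1 and GBP2 the next (0.413), while GBP1 and GBP4 were the farthest apart (1.10). The nearest genes outside the family were HMOX1 (0.319), BCL3 (0.352) and ZC3H12A (0.370) for GBP1, SLC2A6 (0.355), HMOX1 (0.385) and TNFAIP3 (0.410) for GBP2, and GCLM (0.277), UNKL (0.297) and NINJ1 (0.300) for GBP5. For GBP3 they were IL1RN (0.244), ENSG00000108292 (0.250) and ALDH1B1 (0.261), and for GBP4 TLR2 (0.173), ENSG00000163386 (0.177) and TPD52 (0.183). GBP1 and GBP2 thus each lay nearer to several genes outside the family than to one another.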

How the data were processed

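Gene-level RNA was measured in 18 THP-1 libraries (6 groups of 3). The authors prepared QuantSeq 3′ libraries, aligned reads with HISAT to GRCh37, and counted them with featureCounts over the last 500 bases of each gene of Ensembl release 75. They deposited one table of raw counts, in which all 18 value columns were used and 0 left out. Strand and multiple-match settings of the counting are not given in the sources used here, so reads of overlapping or near-identical genes may be split.

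Genes were filtered with filterByExpr by group, which left 16678, and all libraries entered 1 group-means fit in edgeR 4.0.16 (R 4.3.3, TMM, quasi-likelihood F test, Benjamini-Hochberg threshold 0.05). Each of WT, SCR and KD was compared with the other two at the same stimulation, LPS was compared with medium within each, and the LPS responses with one another, 12 contrasts in all. Alternatives were DESeq2 1.42.0, RLE factors, no filter, a replicate block, the compared libraries alone, summed GBP1 and GBP1P1 counts, and leaving out each library.

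Library totals ran from 8206023 to 22344279 counts. A floor of 3 counts is 0.133 to 0.378 CPM and covers counting error only. The labels describe triplicates without naming separate cultures, so p-values measure the spread between these samples. No 2 libraries of a group agreed within sampling noise (chi-square per degree of freedom 5.29 to 36.5). Replicate numbers correlated above 0.1 in every pair only between SCR and WT with LPS (0.163 to 0.261), as a hint from the data. The largest single value was 0.304, between replicate 1 of unstimulated KD and WT, where replicates 2 and 3 gave 0.0039 and 0.0494. The labels do not tie numbers to a shared batch.

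The members and gene lists were chosen with earlier results of these data known, and no list carries a test of its own. By rule the text names the 5 members, TRAFD1, TNF, IL1B, IRF1, CASP4, the up to 4 genes of a list with the smallest adjusted p in the WT response to LPS and up to 2 in KD against SCR with LPS, and the 3 nearest profiles per member (log2 CPM with a prior count of 2). IFNG, IFNB1, SOCS3, CASP5, CD14, CD68, CXCL8, CXCL10, NFKBIA, LRRC8C, PKN2, MX1, the KD-against-WT pathway genes and GBP relatives were named after their values were seen. One result that the rule names is not reported here. Promoters came from RefSeq (GRCh38.p14), which differs from the build of the counts.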

Additional observations from a re-analysis of the deposited data

Results flagged for a closer look

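A difference between conditions marked 1 result for a closer look. The LPS response of GBP1 was smaller in KD than in WT by -1.65 on the log2 scale (edgeR interaction test, adjusted p = 0.0369). The 3 unstimulated WT libraries held 16 to 42 GBP1 counts and the 3 unstimulated KD libraries 26 to 53. Its adjusted p ranged from 0.00102 to 0.130 when single libraries were left out and from 0.000763 to 0.222 over the other alternatives.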

How the results depend on the processing

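With all libraries kept, results were counted once per member, contrast and other alternative. Of these, 395 kept their direction and side of the threshold, 9 gained and 7 lost a call, and 2 reversed. Those 2 were GBP1 in KD against SCR without LPS, at -0.0084 with the replicate block and -0.32 with GBP1P1 counts added. The number of the 5 members called changed as follows, and the causes were not tested. KD against SCR without LPS went from 0 to 1 with DESeq2 on all libraries and with no filter. SCR against WT without LPS went from 1 to 0 with GBP1P1 added, with the compared libraries alone, and on leaving out any library (0 to 0). KD against WT without LPS went from 1 to 0 with GBP1P1 added, with the compared libraries alone in edgeR and in DESeq2, and to 0 to 1 on leaving out a library. KD against WT with LPS went from 0 to 1 under DESeq2 on all libraries, GBP1P1 added, and the compared libraries alone in edgeR and in DESeq2. The LPS response in SCR held 3 to 5 calls on leaving out a library. The LPS response in KD went from 4 to 5, with GBP4 added, under DESeq2 on all libraries, no filter and the replicate block, and to 3 to 5 on leaving out a library. The response in KD against that in WT went from 1 to 0 with GBP1P1 added and with the compared libraries alone, and to 0 to 1 on leaving out a library. DESeq2 gave no adjusted p for any member in KD against SCR with LPS, nor for GBP1 and GBP2 in SCR against WT without LPS on those libraries alone.

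Genes called in KD against SCR numbered 11 without and 0 with LPS in edgeR, 242 and 142 with DESeq2, and 320 and 425 with no filter. The replicate block gave 183 and 85 genes there, and the call on GBP4 in KD was the one member call it changed (edgeR adjusted p = 0.0284). The numbers correlated from -0.0875 to 0.0911 between KD and SCR, so libraries there shared a number only.

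Leaving out 1 library at a time reversed the sign in 34 fits, counted once per member, contrast and library left out. The ranges of the small differences concerned follow. In KD against SCR without LPS they were -0.16 to 0.37 for GBP1, -0.44 to 0.18 for GBP3 and -0.23 to 0.053 for GBP4, and with LPS -0.17 to 0.074 for GBP4. In SCR against WT without LPS they were -0.23 to 0.34 for GBP2 and -0.14 to 0.50 for GBP3. With LPS they were -0.13 to 0.040 for GBP1, -0.13 to 0.13 for GBP2, -0.18 to 0.093 for GBP3 and -0.13 to 0.11 for GBP4. In KD against WT they were -0.062 to 0.13 for GBP3 and -0.034 to 0.25 for GBP4 without LPS, and -0.18 to 0.011 for GBP4 with it. Between responses to LPS they were -0.39 to 0.23 for GBP3 and -0.14 to 0.14 for GBP4 in KD against SCR, and -0.31 to 0.26 for GBP2 and -0.53 to 0.11 for GBP3 in SCR against WT. None of these differences passed the threshold in any such fit. Unstimulated libraries held 16 to 70 GBP1 counts and 19 to 52 GBP2 counts, which limits the precision of both baselines.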
